A study of Mus musculus with 13 samples.

Results

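Blastocysts of ovariectomised mothers that carried guides against both Nprl2 and Tsc2 were compared with ordinary blastocysts of embryonic day 4.5, across all genes. The comparison uses 4 of the 13 libraries in the series, 2 in each group, and 21808 of the 31528 genes in the table had enough counts to be tested. The targeted group (targeted OVX) was collected at embryonic day 5.5, is labelled as a double knockout of Nprl2 and Tsc2, and carries the ovariectomy treatment. The other group (E4.5) is wild type and came from mothers on a normal diet. Another group, wild-type blastocysts of day 5.5 after ovariectomy without guides (OVX, 2 libraries), was used to test where targeted OVX differed from the hormonally arrested state itself. All embryos were on the mixed C57BL/6 and DBA2J background (B6D2F1). The labels do not say how the guides were delivered, what share of alleles was edited, how many blastocysts made a library, or whether replicates were separate mothers, so the p-values speak only of the spread among these libraries, which may be technical. Targeted OVX is 1 day older than E4.5, so age, ovariectomy and targeting cannot be told apart in the comparison with E4.5.

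Ovariectomy before implantation holds the mouse blastocyst in diapause, a reversible arrest in which growth and division slow. The kinase complex mTORC1 drives protein synthesis and growth, and its inhibition is known to put mouse blastocysts and embryonic stem cells into a diapause-like state. NPRL2 is a subunit of GATOR1, which turns off the Rag GTPases that bring mTORC1 to the lysosome when amino acids are present. TSC2 is the GTPase-activating subunit of the TSC complex, which switches off RHEB, the small GTPase that activates mTORC1 there. Loss of either protein is known to leave mTORC1 active in cells short of nutrients or growth factors. The comparison therefore bears on how far blastocysts in which both brakes were targeted, and which were kept in an ovariectomised mother, still differed from blastocysts before arrest.

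Targeted OVX libraries held 51583336 and 40678386 counts, against 56038082 and 48834738 in E4.5. Fewer genes had any count in targeted OVX, at 17936 and 15391, against 21033 and 20185 in E4.5, and mitochondrially encoded RNA took 2.05% and 2.80% of counts in targeted OVX, against 5.06% and 6.69% in E4.5. The blastocyst label was borne out by the lineage markers, with 25 and 24 of 26 naive pluripotency genes above 1 CPM (the count scaled by the library total) in targeted OVX, against 26 and 26 in E4.5, and with 26 and 25 of 29 trophectoderm genes, against 26 and 26 in E4.5. Of 26 primitive endoderm genes 20 and 22 were above 1 CPM in targeted OVX, against 22 and 22 in E4.5. Summed, these were lower, at 1357 and 895 CPM in targeted OVX, against 2980 and 2022 CPM in E4.5. The naive pluripotency sum went the other way, at 26797 and 23118 CPM in targeted OVX, against 14763 and 10601 CPM in E4.5. The trophectoderm sums of the groups overlapped. Some markers of cells outside the embryo had counts in both groups, and those of blood leukocytes were higher in sum in targeted OVX. Of 15 neutrophil genes 1 was called (6.67%, against 1.68% of all genes higher). Their sum was 38.2 and 59.9 CPM in targeted OVX, against 1.70 and 0.758 CPM in E4.5, with 8 and 9 of these genes at 0 in targeted OVX, against 9 and 11 in E4.5. Only S100a8, S100a9 and Chil3 were above 1 CPM in targeted OVX, and no gene of the list was in E4.5. Of 15 macrophage and leukocyte genes the sum was 90.9 and 90.6 CPM in targeted OVX, against 46.8 and 25.6 CPM in E4.5, with 1 and 2 at 0 in targeted OVX, 2 and 2 at 0 in E4.5, none called and a median log2 fold change 1.80 above that of all genes. Lyz2, a lysozyme gene of that list, held most of the targeted OVX sum, at 52.8 and 57.6 CPM of library totals, against 1.999 and 0.758 CPM in E4.5. Of the 15 fold changes 11 were positive and 4 negative. Laptm5 was lower, at 3.51 and 2.53 CPM in targeted OVX, against 31.6 and 17.65 CPM in E4.5. Of 17 skeletal muscle genes the sum was 503 and 231 CPM in targeted OVX, against 342 and 198 CPM in E4.5, with 8 and 10 at 0 in targeted OVX and 10 and 9 at 0 in E4.5. Mylpf alone held 490 and 214 CPM of these sums in targeted OVX, and 305 and 160 CPM in E4.5. Above 1 CPM were 5 and 3 of the 17 genes in targeted OVX, and 6 and 7 in E4.5. The part of such cells in the results below was not tested. In OVX replicates 1 and 2 the neutrophil sum was 655 and 133 CPM, and the macrophage and leukocyte sum 739 and 21.1 CPM. OVX replicate 1 held 1583 CPM of the muscle markers, against 189 CPM in OVX replicate 2, and without it none of 9 genes given below as not passing against OVX passed (adjusted p between 0.12 and 1.0). In whole blastocysts, fewer cells of a type and less RNA per cell cannot be told apart.

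Nprl2 (ENSMUSG00000010057, chromosome 9, 107542226 to 107545706, GRCm38) had 13.9 and 28.6 CPM in targeted OVX, against 11.9 and 18.5 CPM in E4.5. Here and below, single-gene CPM are on the TMM scale (trimmed mean of M values). Tsc2 (ENSMUSG00000002496, chromosome 17, 24595816 to 24632630) had 14.7 and 8.26 CPM in targeted OVX, against 17.0 and 14.4 CPM in E4.5. The ranges overlapped for Nprl2 and for Tsc2, with log2 fold changes (targeted OVX minus E4.5) of 0.49 ± 0.52 and −0.45 ± 0.48 (SE) and edgeR adjusted p of 0.66 for both. OVX held 38.0 and 36.5 CPM of Nprl2 and 23.3 and 14.1 CPM of Tsc2, and neither gene passed against OVX (adjusted p = 0.55 and 0.58). Small insertions and deletions need not lower the RNA of a gene, so these values neither check nor contradict the labels. The sign for Nprl2 turned negative with library totals as scaling, on FPKM and without targeted OVX replicate 2.

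Between targeted OVX and E4.5, 581 genes were called at an adjusted p under 0.05 (2.66% of those tested), with 366 higher in targeted OVX (1.68%) and 215 lower (0.986%). No overlap between the libraries of one group and the other was seen for all 581, and for 48.9% of all tested genes. Among the lower genes, 50 had no count in either targeted OVX library, and among the higher genes 5 had none in either E4.5 library. The median log2 fold change over all genes was −0.16 (−0.92 with library totals as scaling and −0.51 on FPKM), and list medians below are given relative to it. The lists and their members were chosen with earlier results of these data known. Their medians and shares of calls therefore describe the lists and do not test them. Against OVX 8 genes were called (0.0367%), 1 higher and 7 lower in targeted OVX. The count of 581 rests on the spread shared over all 6 groups of the series: a fit of the 4 libraries alone called 0 genes, although 4165 had an unadjusted p under 0.05, and DESeq2 called 2567. It was 791 without targeted OVX replicate 1, 239 without targeted OVX replicate 2, 185 without E4.5 replicate 1 and 82 without E4.5 replicate 2, and scaling by library totals gave 764 calls of which 14.1% were higher, in place of 63.0%.

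**Figure D1:**
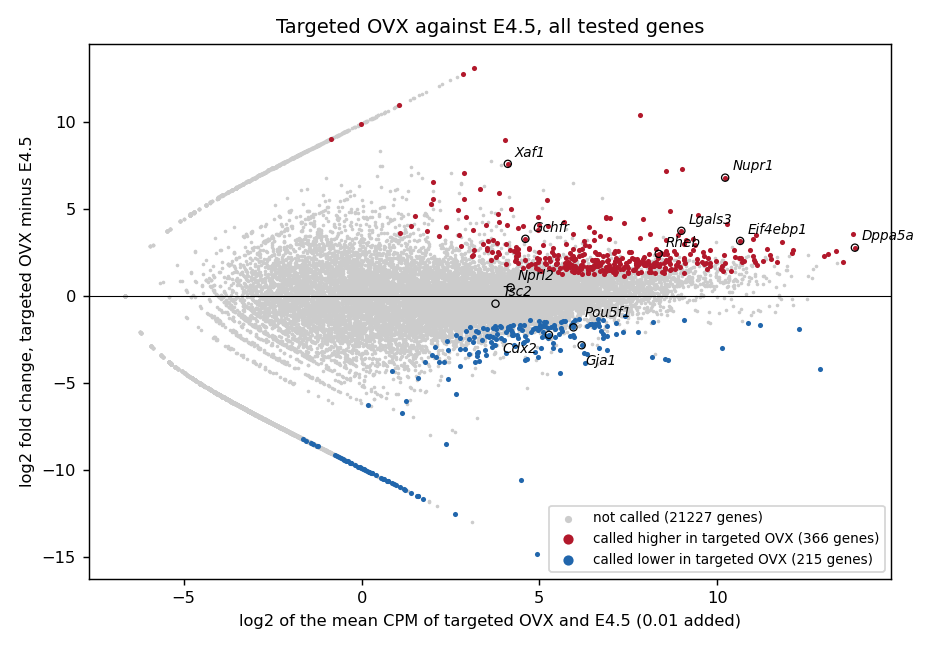
Log2 fold change of each of 21808 tested genes between targeted OVX and E4.5 (vertical axis) against the log2 of its mean CPM in these groups (horizontal axis, 0.01 CPM added), with called genes coloured and the genes discussed ringed. Nprl2 and Tsc2 lie near 0, Eif4ebp1 and Nupr1 among the higher calls, and the lower curved edge holds genes with no count in targeted OVX.

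Among the mTORC1 pathway genes, the clearest difference was Eif4ebp1, which encodes 4E-BP1, the repressor of cap-dependent translation that mTORC1 phosphorylates and so switches off (ENSMUSG00000031490, chromosome 8, 27260329 to 27276674). It had 2527 and 3227 CPM in targeted OVX, against 339 and 307 CPM in E4.5. Both targeted libraries stood several times above every other library of the 3 groups, since OVX held 551 and 481 CPM. Eif4ebp1 was 8.91-fold higher than in E4.5 (log2 fold change 3.15 ± 0.38 SE, adjusted p = 0.003, and 0.0012 to 0.018 when any 1 of the 4 libraries was left out). It was also the only gene called higher than in OVX (2.48 ± 0.37, adjusted p = 0.042), a call lost without targeted OVX replicate 2 (adjusted p = 0.062) and with median-of-ratios scaling (0.056). Rheb, the GTPase that the TSC complex holds off, had 415 and 687 CPM in targeted OVX, against 104 and 103 CPM in E4.5. It was 5.33-fold higher (2.41 ± 0.31, adjusted p = 0.0045) and kept its call whichever of the 4 libraries was left out. OVX held 358 and 302 CPM of Rheb, and the difference from OVX did not pass (0.74 ± 0.30, adjusted p = 0.4).

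The complexes that the guides address are short lists, and 2.66% of all tested genes were called in either direction. Counts of calls therefore say little about them. None of 12 tested genes of GATOR1, KICSTOR and GATOR2 was called. Of 5 genes of the TSC complex with Rheb only Rheb was (20.0% higher, against 1.68% of all genes). Nprl3, the partner of NPRL2 in GATOR1, had 1.45 and 2.79 CPM in targeted OVX, against 4.11 and 8.50 CPM in E4.5 (adjusted p = 0.29). Depdc5, the third GATOR1 subunit, had 4.39 and 2.65 CPM in targeted OVX, against 4.36 and 6.00 CPM in E4.5 (adjusted p = 0.74). Tsc1, which stabilises TSC2, had 9.03 and 8.71 CPM in targeted OVX, against 11.3 and 6.53 CPM in E4.5, so that its groups overlapped (adjusted p = 1.0). The SE was 0.73 on the log2 scale for Nprl3 and for Depdc5. Of 12 genes of the mTOR complexes 1 was called, as lower (8.33%, against 0.986% of all genes). This was Tti1, which encodes a chaperone subunit for mTOR and related kinases. Tti1 had 3.17 and 1.86 CPM in targeted OVX, against 12.01 and 15.6 CPM in E4.5 (−2.46 ± 0.60, adjusted p = 0.049, lost without any 1 of the 4 libraries). The kinase gene Mtor had 11.97 and 23.3 CPM in targeted OVX, against 20.9 and 24.0 CPM in E4.5, and Rptor, which encodes the mTORC1 scaffold RAPTOR, 15.1 and 16.8 CPM, against 15.4 and 18.5 CPM in E4.5. Neither passed (adjusted p = 0.73 and 1.0).

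Parts of the lysosomal platform on which mTORC1 sits were higher. Ragulator anchors the Rag GTPases to the lysosome. Its genes Lamtor5 and Lamtor3 were the 2 called of 21 amino acid sensing genes (9.52%, against 1.68% of all genes higher). Lamtor5 had 581 and 469 CPM in targeted OVX, against 165 and 129 CPM in E4.5 (1.83 ± 0.34, adjusted p = 0.018). Lamtor3 had 116 and 157 CPM in targeted OVX, against 10.4 and 25.7 CPM in E4.5 (2.92 ± 0.58, adjusted p = 0.024). The amino acid sensing list had 2, 1, 0 and 1 members called higher without targeted OVX replicate 1, targeted OVX replicate 2, E4.5 replicate 1 and E4.5 replicate 2. Of 16 subunits of the V-ATPase, the proton pump that acidifies lysosomes, 4 were higher (25.0%, against 1.68% of all genes) and 1 lower (6.25%, against 0.986%). Atp6v0b, of the membrane ring, had 527 and 700 CPM in targeted OVX, against 152 and 153 CPM in E4.5 (2.01 ± 0.32, adjusted p = 0.0091). Atp6v1a, the catalytic subunit, went the other way, at 39.9 and 59.6 CPM in targeted OVX, against 150 and 149 CPM in E4.5 (−1.58 ± 0.32, adjusted p = 0.025). The V-ATPase list had 4, 1, 0 and 0 members called higher without the same libraries in turn, and 0 with library totals as scaling.

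Of 22 genes of mTORC1 substrates and translation control, 1 was higher (4.55%, against 1.68% of all genes). Another 3 were lower (13.6%, against 0.986%). Ulk1, the kinase that starts autophagy and is held off by mTORC1, had 13.2 and 12.5 CPM in targeted OVX, against 50.3 and 47.6 CPM in E4.5 (−1.93 ± 0.36, adjusted p = 0.018). Atg13, a subunit of the ULK1 complex, had 27.4 and 29.5 CPM in targeted OVX, against 66.4 and 87.5 CPM in E4.5 (−1.43 ± 0.34, adjusted p = 0.043). Eif4g1, the scaffold that 4E-BP1 displaces from the cap, had 55.8 and 54.4 CPM in targeted OVX, against 169 and 199 CPM in E4.5 (−1.74 ± 0.40, adjusted p = 0.039). Ulk1, Atg13 and Eif4g1 each lost their call without any 1 of the 4 libraries. The 22 genes of mTORC1 substrates and translation control thus held 1 higher and 3 lower calls, and 1, 0, 0 and 0 lower calls without targeted OVX replicate 1, targeted OVX replicate 2, E4.5 replicate 1 and E4.5 replicate 2. Foxo1, a transcription factor restrained by growth factor signalling, was the only call among 17 FOXO and sestrin genes (5.88%, against 0.986% of all genes lower). It had 7.28 and 6.65 CPM in targeted OVX, against 33.6 and 28.7 CPM in E4.5 (−2.16 ± 0.48, adjusted p = 0.034). Foxo1 lost its call without any 1 of the 4 libraries, and OVX was at a similar level of 5.39 and 9.38 CPM.

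**Figure D2:**
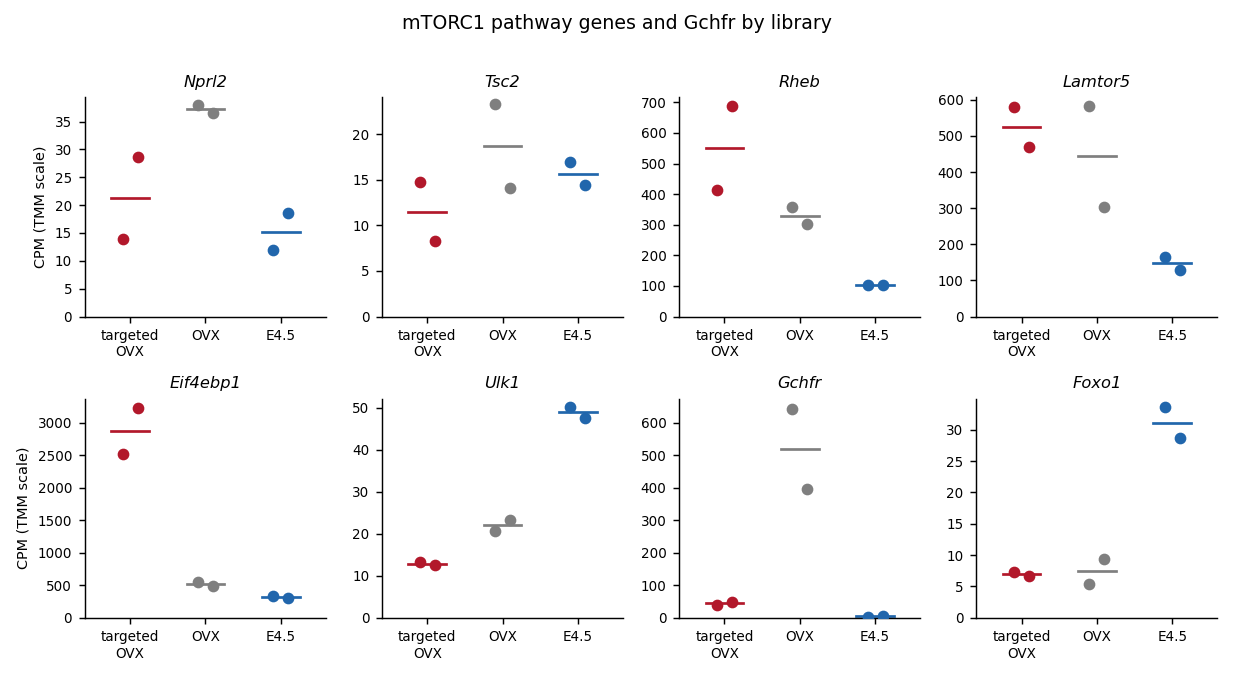
CPM (TMM scale, from 0) of 8 genes in each library of targeted OVX, OVX and E4.5, with points for libraries and bars for the mean of 2. Eif4ebp1 stands at 2527 and 3227 CPM in targeted OVX and at 551 or less in the other groups, while Gchfr lies between OVX and E4.5.

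Some genes of the amino acid response were higher. ATF4 is the transcription factor that cells make when amino acids or charged tRNAs run short, and that mTORC1 also induces, and many of its targets hold a composite C/EBP-ATF element in their promoters. Of 35 tested genes of the ATF4 list 5 were higher (14.3%, against 1.68% of all genes) and 0 lower, and the list's median was 1.35 above that of all genes on the log2 scale. The promoters of Nupr1 and Asns, the 2 called genes with the element TGATGNAA, are shown from 250 bases before to 50 after the start of transcription (RefSeq, GRCm38.p6, 5′ to 3′ on the gene's strand), with the element in capitals on whichever strand it lies:
Nupr1, chr7:126625421-126625720, minus strand: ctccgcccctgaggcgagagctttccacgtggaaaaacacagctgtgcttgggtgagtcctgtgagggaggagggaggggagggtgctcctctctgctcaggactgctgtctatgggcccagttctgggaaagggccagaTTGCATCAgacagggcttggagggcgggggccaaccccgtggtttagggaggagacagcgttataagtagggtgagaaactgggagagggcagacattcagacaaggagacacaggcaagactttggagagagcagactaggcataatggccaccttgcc
Asns, chr6:7693160-7693459, minus strand: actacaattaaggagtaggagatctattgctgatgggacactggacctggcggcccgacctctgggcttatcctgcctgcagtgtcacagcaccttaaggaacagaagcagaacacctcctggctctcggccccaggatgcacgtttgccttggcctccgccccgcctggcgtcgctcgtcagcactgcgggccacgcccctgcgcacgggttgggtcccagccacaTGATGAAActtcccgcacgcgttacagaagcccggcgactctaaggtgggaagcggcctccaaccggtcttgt
In Nupr1 the match lies on the other strand as TTGCATCA and begins 110 bases before the start, and in Asns it reads TGATGAAA and begins 23 bases before it. Searching both strands, 10 of 37 promoters of the list's genes held a match (27.0%), against 1304 of 32851 promoters in the RefSeq table (3.97%). Of the 5 called genes 2 held one, and the list was drawn up from known ATF4 targets, so these shares are a description. A match is a description of the letters and not a shown binding site.

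Nupr1, a stress-induced chromatin protein (ENSMUSG00000030717), had 2116 and 2618 CPM in targeted OVX, against 13.6 and 29.3 CPM in E4.5. That is a 110-fold difference (6.79 ± 1.12, adjusted p = 0.01), kept whichever library was left out (0.003 to 0.031). OVX held 1387 and 712 CPM, so that Nupr1 was high in both groups from ovariectomised mothers. Ddit3, which encodes the stress factor CHOP, had 355 and 289 CPM in targeted OVX, against 59.9 and 52.4 CPM in E4.5 (2.52 ± 0.45, adjusted p = 0.014). Psat1 and Psph, which encode the last enzymes of serine synthesis, followed. Psat1 had 250 and 237 CPM in targeted OVX, against 61.2 and 56.0 CPM in E4.5 (2.05 ± 0.46, adjusted p = 0.035). Psph had 138 and 198 CPM in targeted OVX, against 20.6 and 15.4 CPM in E4.5 (3.22 ± 0.56, adjusted p = 0.012). Unlike Nupr1, Ddit3 and Psat1 were in OVX near the level of E4.5, with 61.1 and 71.0 CPM of Ddit3 and 43.3 and 71.4 CPM of Psat1. The differences of targeted OVX from OVX did not pass for either (2.28 ± 0.45 and 2.09 ± 0.46, adjusted p = 0.098 and 0.12). Asns, asparagine synthetase, had 379 and 449 CPM in targeted OVX, against 132 and 87.9 CPM in E4.5 (1.91 ± 0.44, adjusted p = 0.041), and OVX held 307 and 294 CPM. Ddit3 lost its call without either E4.5 library, Psph without E4.5 replicate 2, Asns without targeted OVX replicate 2 or either E4.5 library, and Psat1 without any 1 of the 4.

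Trib3, a pseudokinase that CHOP and ATF4 induce, just missed the threshold, with 44.9 and 131 CPM in targeted OVX, against 5.08 and 11.8 CPM in E4.5 (3.38 ± 0.84, adjusted p = 0.053). Atf4 itself had 71.0 and 94.8 CPM in targeted OVX, against 150 and 217 CPM in E4.5 (−1.15 ± 0.53, adjusted p = 0.28), and its protein is known to be set mainly by translation. Against OVX the ATF4 list had a median log2 fold change of 0.98, against −0.09 for all genes, with 0 members called, and 0.99 without OVX replicate 1. The list had 5, 3, 2 and 1 members called higher without targeted OVX replicate 1, targeted OVX replicate 2, E4.5 replicate 1 and E4.5 replicate 2, and 2 with library totals as scaling. Related lists held fewer calls. Of 24 amino acid transporter genes 2 were higher, Slc7a3 and Slc6a14, and of 19 aminoacyl-tRNA synthetase genes 1, Nars (8.33% and 5.26%, against 1.68% of all genes). Slc7a3, a transporter of cationic amino acids such as arginine, had 61.2 and 17.4 CPM in targeted OVX, against 3.11 and 2.14 CPM in E4.5 (3.90 ± 0.79, adjusted p = 0.024). Slc6a14, a broad importer of neutral and cationic amino acids, had 88.6 and 124 CPM in targeted OVX, against 11.5 and 20.9 CPM in E4.5 (2.71 ± 0.62, adjusted p = 0.038). The transporter list had 2, 1, 0 and 0 higher calls and the synthetase list 0 throughout without the same libraries in turn.

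A few death-related genes of the p53 and BCL2 lists were higher. Of 18 BCL2 family genes 2 were higher (11.1%, against 1.68% of all genes) and 0 lower. Of their fold changes 8 were positive and 10 negative, with a median 0.06 above that of all genes. Eda2r, a p53-induced death receptor, had 64.8 and 55.2 CPM in targeted OVX, against 3.63 and 3.65 CPM in E4.5, a 16.5-fold difference (4.04 ± 0.63, adjusted p = 0.0091, 0.061 without E4.5 replicate 2). Bax, which permeabilises the mitochondrial outer membrane, had 482 and 540 CPM in targeted OVX, against 212 and 94.6 CPM in E4.5 (1.74 ± 0.41, adjusted p = 0.045). OVX held 13.6 and 9.70 CPM of Eda2r and 272 and 196 CPM of Bax, nearer to E4.5 than to targeted OVX, but the differences of targeted OVX from OVX did not pass (adjusted p = 0.18 and 0.34). Cdkn1a, the p53-induced cell cycle inhibitor, did not pass against E4.5, at 149 and 110 CPM in targeted OVX, against 107 and 36.4 CPM in E4.5 (adjusted p = 0.49). Of 23 p53 response genes 2 were higher (8.70%, against 1.68% of all genes) and 0 lower, with 1, 1, 2 and 0 higher without targeted OVX replicate 1, targeted OVX replicate 2, E4.5 replicate 1 and E4.5 replicate 2. Hrk, a BH3-only activator of death in the BCL2 list, had 0.710 and 3.24 CPM in targeted OVX and no count in E4.5, at least 47.4-fold higher against a floor of 3 counts per library (adjusted p = 0.032), and lost its call without targeted OVX replicate 2 and without either E4.5 library.

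**Figure D3:**
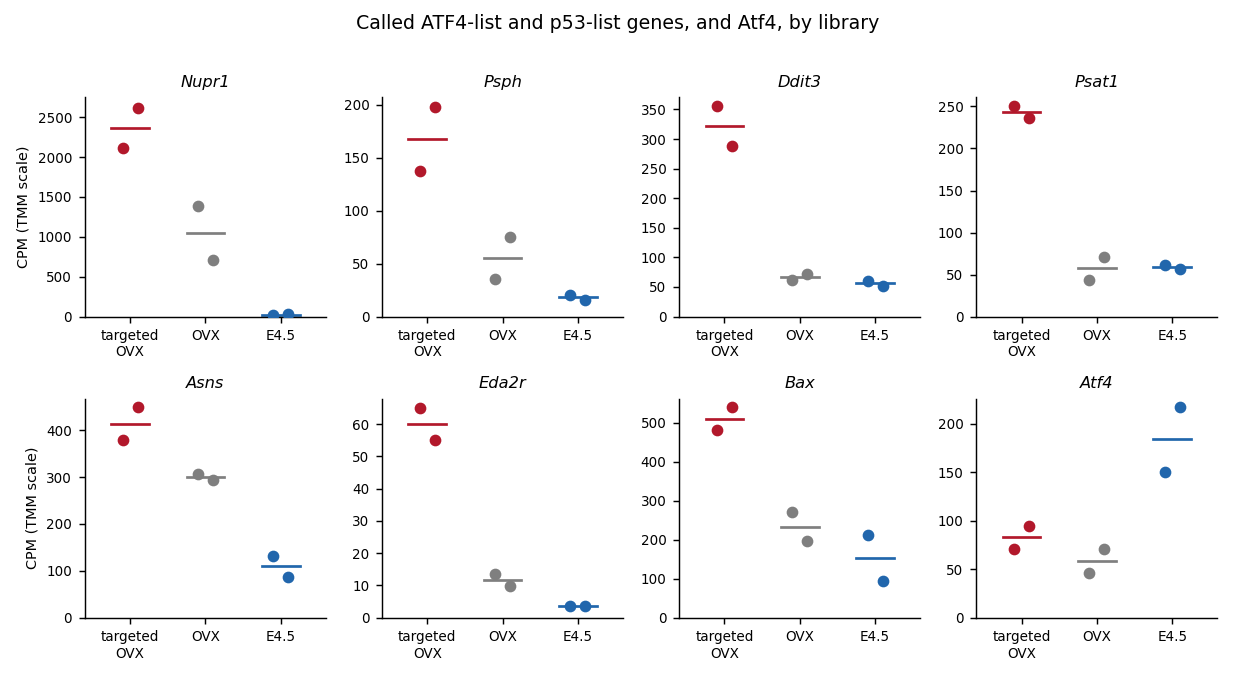
CPM (TMM scale, from 0) of the 5 called ATF4-list genes, 2 called p53-list genes and Atf4 in each library of targeted OVX, OVX and E4.5, with points for libraries and bars for the mean of 2. Ddit3 and Psat1 are near the level of E4.5 in OVX and above it in targeted OVX, whereas Nupr1 is high in both groups from ovariectomised mothers.

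Nuclear genes of oxidative phosphorylation held more higher calls than any other list, and 2 mitochondrially encoded mRNAs were lower. Of 71 nuclear subunit genes 12 were higher (16.9%, against 1.68% of all genes) and 0 lower, 69 had a positive fold change, and the median stood 1.60 above that of all genes. Cycs, cytochrome c, had 7903 and 5035 CPM in targeted OVX, against 836 and 666 CPM in E4.5 (3.11 ± 0.60, adjusted p = 0.022). Cox5a, of complex IV, had 8725 and 6193 CPM in targeted OVX, against 1537 and 1139 CPM in E4.5 (2.48 ± 0.55, adjusted p = 0.034). Ndufb5, of complex I, had 1029 and 724 CPM in targeted OVX, against 204 and 187 CPM in E4.5 (2.16 ± 0.37, adjusted p = 0.012). The 2 OVX libraries lay far apart for Cycs and Cox5a, at 6651 and 1359 CPM and at 8182 and 2202 CPM. The nuclear list had 5, 4, 1 and 0 members called without targeted OVX replicate 1, targeted OVX replicate 2, E4.5 replicate 1 and E4.5 replicate 2, while its median relative to all genes stayed between 1.22 and 1.78. Targeted OVX replicate 1 held relatively more of short transcripts, while replicate 2 lay near E4.5 replicate 1. This is the rank correlation over genes between log2 CPM relative to the gene's mean over all libraries and length. Length was estimated from the counts and FPKM. The correlation was −0.13 and −0.06 in targeted OVX, against −0.05 and 0.02 in E4.5. With an offset for length 27 members were called higher and the relative median was 1.71. With library totals as scaling 8 were called higher and the relative median was 1.59.

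Of the 13 mitochondrially encoded mRNAs 2 were lower (15.4%, against 0.986% of all genes). Adjacent genes mt-Nd4l and mt-Nd4 encode subunits of complex I on 1 transcript. Counts of mt-Nd4l came to 45.8 and 57.3 CPM in targeted OVX, against 193 and 274 CPM in E4.5 (−2.18 ± 0.35, adjusted p = 0.0091). Those of mt-Nd4 came to 1021 and 1236 CPM in targeted OVX, against 2587 and 4628 CPM in E4.5 (−1.68 ± 0.39, adjusted p = 0.041). OVX was at the level of targeted OVX for both, with 62.6 and 45.9 CPM of mt-Nd4l and 990 and 1219 CPM of mt-Nd4. With an offset for length the list had 1 lower call, mt-Nd4l (edgeR adjusted p = 0.029, and 0.088 for mt-Nd4). The list had 1, 1, 2 and 0 lower calls without targeted OVX replicate 1, targeted OVX replicate 2, E4.5 replicate 1 and E4.5 replicate 2, and 8 with library totals as scaling. The mitochondrial ribosomal RNA mt-Rnr1 was lower too, at 216 and 283 CPM in targeted OVX, against 1078 and 2926 CPM in E4.5 (−3.01 ± 0.53, adjusted p = 0.014, 0.072 without E4.5 replicate 2).

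Lists of the translation machinery had medians above that of all genes, with few single calls. Mitochondrial ribosomal proteins had 6 of 58 members higher (10.3%, against 1.68% of all genes) and 0 lower, and a median 0.83 above that of all genes. Mrpl35 had 625 and 536 CPM in targeted OVX, against 124 and 84.5 CPM in E4.5 (2.48 ± 0.40, adjusted p = 0.0091), and Mrps18a 597 and 451 CPM, against 129 and 101 CPM in E4.5 (2.19 ± 0.35, adjusted p = 0.0091). That list had 5, 3, 2 and 0 higher calls without targeted OVX replicate 1, targeted OVX replicate 2, E4.5 replicate 1 and E4.5 replicate 2. Cytosolic ribosomal proteins had 64 of 78 fold changes above 0 and a relative median of 0.92. They held 1 higher and 1 lower call, Rps7 and Rpl29 (1.28% each, against 1.68% and 0.986% of all genes). Rps7 lost its call without any 1 of the 4 libraries and Rpl29 without targeted OVX replicate 1 or either E4.5 library. Rps7 had 2013 and 1309 CPM in targeted OVX, against 671 and 551 CPM in E4.5 (1.44 ± 0.34, adjusted p = 0.042). Rpl29 had 7.001 and 42.9 CPM in targeted OVX, against 221 and 209 CPM in E4.5 (−3.11 ± 0.72, adjusted p = 0.042). Ribosomal protein genes have many near-identical processed pseudogenes, so single values depend on how reads were assigned. Eif5a, an elongation factor, had 5577 and 3860 CPM in targeted OVX, against 1154 and 1055 CPM in E4.5 (2.10 ± 0.38, adjusted p = 0.014). It and 2 other factors were higher among 35 initiation and elongation factors (8.57%, against 1.68% of all genes), and 2 were lower (5.71%, against 0.986%). The factor list had 3, 1, 0 and 0 higher calls without the same libraries in turn, and 0 with library totals as scaling.

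**Figure D4:**
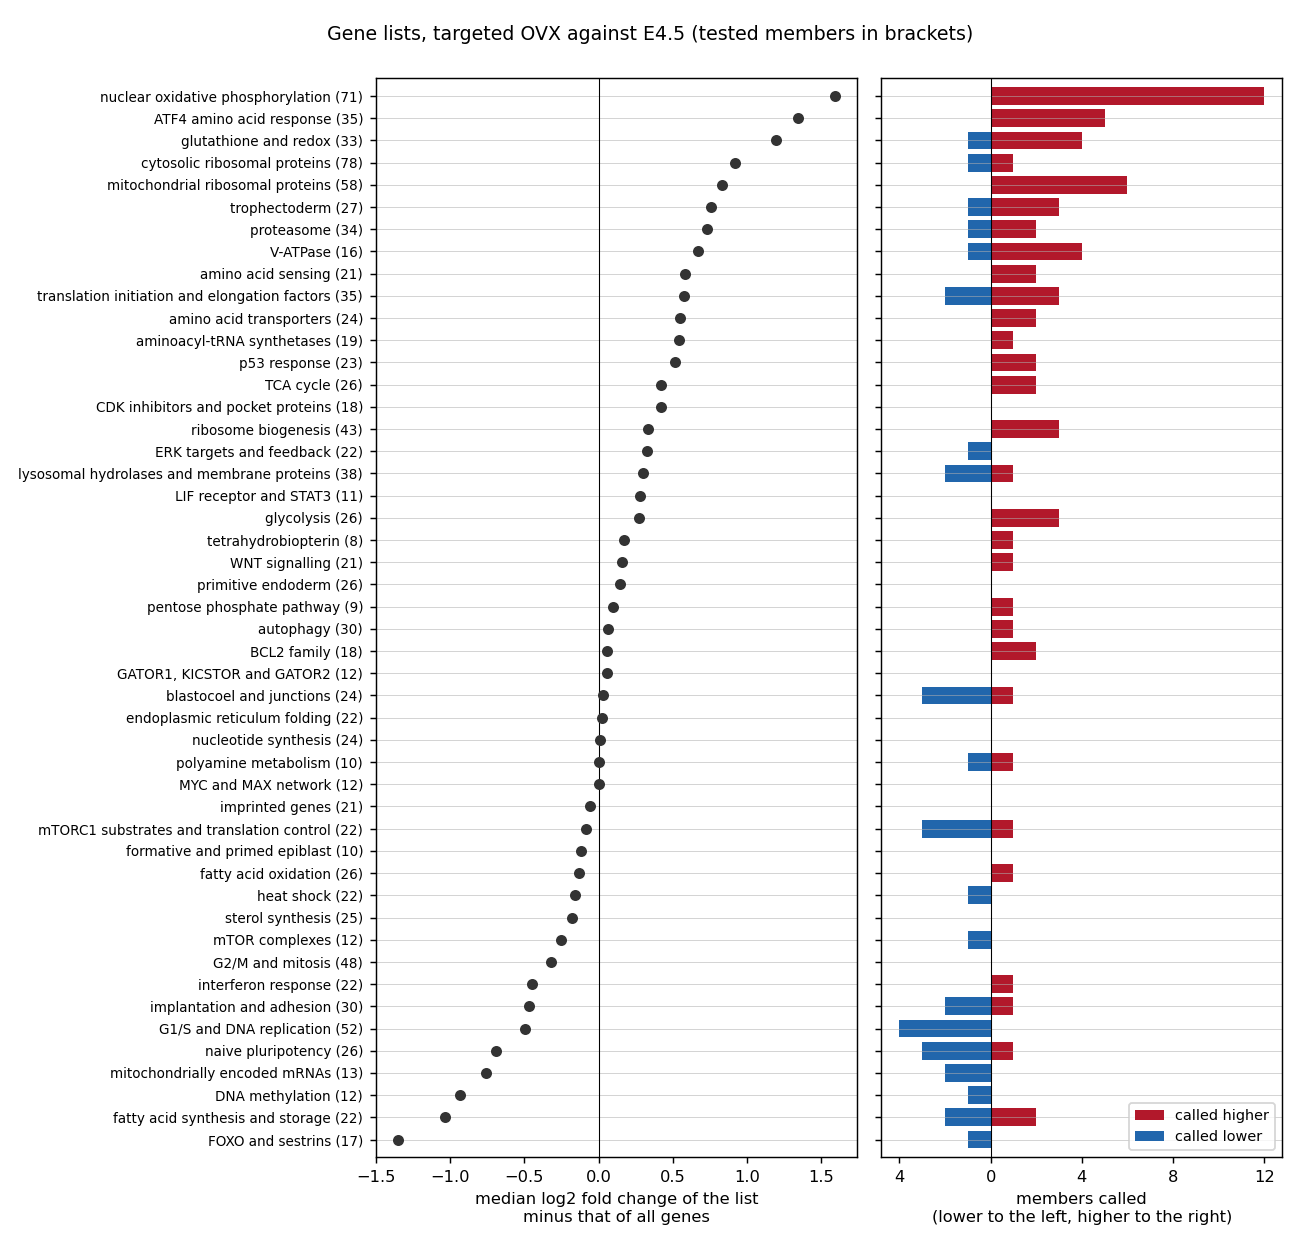
Gene lists of at least 8 tested members ordered by their median log2 fold change between targeted OVX and E4.5 minus that of all genes (left), with the number of members called lower and higher (right). Nuclear oxidative phosphorylation stands at 1.60 with 12 members higher, and DNA replication at −0.50 with 4 lower.

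Some replication genes were lower, and no mitotic gene was called. Of 52 genes of the G1/S transition and DNA replication 4 were lower (7.69%, against 0.986% of all genes) and 0 higher. Pole, whose product is the polymerase epsilon catalytic subunit, had 7.69 and 5.58 CPM in targeted OVX, against 39.7 and 42.1 CPM in E4.5 (−2.62 ± 0.39, adjusted p = 0.0075). Pold1, its counterpart in polymerase delta, had 5.73 and 3.95 CPM in targeted OVX, against 35.6 and 34.2 CPM in E4.5 (−2.85 ± 0.47, adjusted p = 0.01). The helicase subunits Mcm7 (−1.74 ± 0.36) and Mcm3 (−2.01 ± 0.47) were the others called. With an offset for length the list had 2 lower and 2 higher calls. Mcm7 and Mcm3 then did not pass (edgeR adjusted p = 0.076 and 0.095). OVX held 12.2 and 9.20 CPM of Pole and 13.7 and 12.2 CPM of Pold1, all below both E4.5 libraries. None of 48 genes of G2/M and mitosis was called, where 2.66% of all genes were, and their median was −0.32 relative to all genes. Against OVX the median of these 48 genes was 0.75 in targeted OVX, where that of all genes was −0.09, also with 0 called. That median was 1.67 without OVX replicate 1 and 0.26 without OVX replicate 2, so its size depends on which OVX library is used. The replication list had 4, 0, 1 and 0 lower calls without targeted OVX replicate 1, targeted OVX replicate 2, E4.5 replicate 1 and E4.5 replicate 2, and 11 with library totals as scaling.

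Genes of the blastocyst lineages differed in both directions. Among 26 genes of naive pluripotency 3 were lower (11.5%, against 0.986% of all genes), 1 was higher (3.85%, against 1.68%), and the relative median was −0.69. Pou5f1, which encodes OCT4, had 26.9 and 28.4 CPM in targeted OVX, against 111 and 82.5 CPM in E4.5 (−1.81 ± 0.41, adjusted p = 0.037). OVX was lower still, at 9.48 and 12.97 CPM, without passing against targeted OVX (adjusted p = 0.27). Tbx3, a factor of self-renewal, had 8.24 and 1.52 CPM in targeted OVX, against 40.2 and 27.9 CPM in E4.5 (−2.80 ± 0.65, adjusted p = 0.041). Tfcp2l1, another naive factor, had 113 and 97.7 CPM in targeted OVX, against 238 and 233 CPM in E4.5 (−1.16 ± 0.27, adjusted p = 0.042). Nanog and Sox2 did not pass (adjusted p = 0.21 and 0.93). Dppa5a, an RNA-binding marker of the early embryo, was the exception. It had 28268 and 23933 CPM in targeted OVX, against 4301 and 3367 CPM in E4.5 (2.77 ± 0.48, adjusted p = 0.013, 0.088 without E4.5 replicate 2). Pou5f1 and Tfcp2l1 lost their calls without any 1 of the 4 libraries, and the list had 3, 0, 0 and 0 lower calls without targeted OVX replicate 1, targeted OVX replicate 2, E4.5 replicate 1 and E4.5 replicate 2.

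Trophectoderm, the outer layer that attaches to the uterus, showed both directions. Of 27 tested genes 3 were higher (11.1%, against 1.68% of all genes) and 1 lower (3.70%, against 0.986%). Lgals3, a galactoside-binding lectin (ENSMUSG00000050335), had 784 and 1109 CPM in targeted OVX, against 79.9 and 62.3 CPM in E4.5. Tspan8, a membrane tetraspanin, had 4306 and 3761 CPM in targeted OVX, against 272 and 436 CPM in E4.5. These were 13.3-fold and 11.4-fold differences (3.74 ± 0.37 and 3.51 ± 0.40, adjusted p = 0.0013 and 0.0027), kept whichever of the 4 libraries was left out. OVX was at the level of targeted OVX, with 975 and 681 CPM of Lgals3 and 5404 and 4059 CPM of Tspan8. Cdx2, the transcription factor that specifies trophectoderm, had 16.03 and 10.9 CPM in targeted OVX, against 59.0 and 68.1 CPM in E4.5 (−2.24 ± 0.42, adjusted p = 0.017). Its call was lost without targeted OVX replicate 2 (adjusted p = 0.11) and without E4.5 replicate 2 (0.095). Krt19 rested on 1 library, with 20.8 and 294 CPM in targeted OVX, against 10.4 and 9.52 CPM in E4.5 (adjusted p = 0.049, 0.62 without targeted OVX replicate 2). None of 26 primitive endoderm genes was called, where 2.66% of all genes were. Gata6 was close, at 42.6 and 28.8 CPM in targeted OVX, against 131 and 107 CPM in E4.5 (−1.73 ± 0.43, adjusted p = 0.052).

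Of 7 called junction and adhesion genes 5 were lower, where 0.986% of all genes were called lower and 1.68% higher. Gja1, the gap junction protein connexin 43, had 21.6 and 14.3 CPM in targeted OVX, against 144 and 112 CPM in E4.5, and kept its call without each library (−2.83 ± 0.41, adjusted p = 0.0072). Jup, the junctional protein plakoglobin, was also among the 3 lower genes of 24, or 12.5% of the list (−1.85 ± 0.45, adjusted p = 0.048). Car2, a carbonic anhydrase, was the 1 higher gene (4.17%), at 51.8 and 63.2 CPM in targeted OVX, against 5.35 and 3.01 CPM in E4.5 (3.78 ± 0.75, adjusted p = 0.024). Of 30 implantation and adhesion genes 2 integrin subunits were lower (6.67%), Itgb5 (−2.53 ± 0.51, adjusted p = 0.024) and Itga6 (−1.85 ± 0.44, adjusted p = 0.045). F3, tissue factor, was the 1 higher (3.33%), at 11.8 and 12.6 CPM in targeted OVX, against 1.46 and 0.695 CPM in E4.5 (3.49 ± 0.77, adjusted p = 0.034). Without targeted OVX replicate 1, targeted OVX replicate 2, E4.5 replicate 1 and E4.5 replicate 2, the junction list had 2, 1, 1 and 1 lower calls and the adhesion list 1, 0, 0 and 0. Car2 lost its call without E4.5 replicate 2 (adjusted p = 0.13), and F3 without targeted OVX replicate 2 or either E4.5 library.

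**Figure D5:**
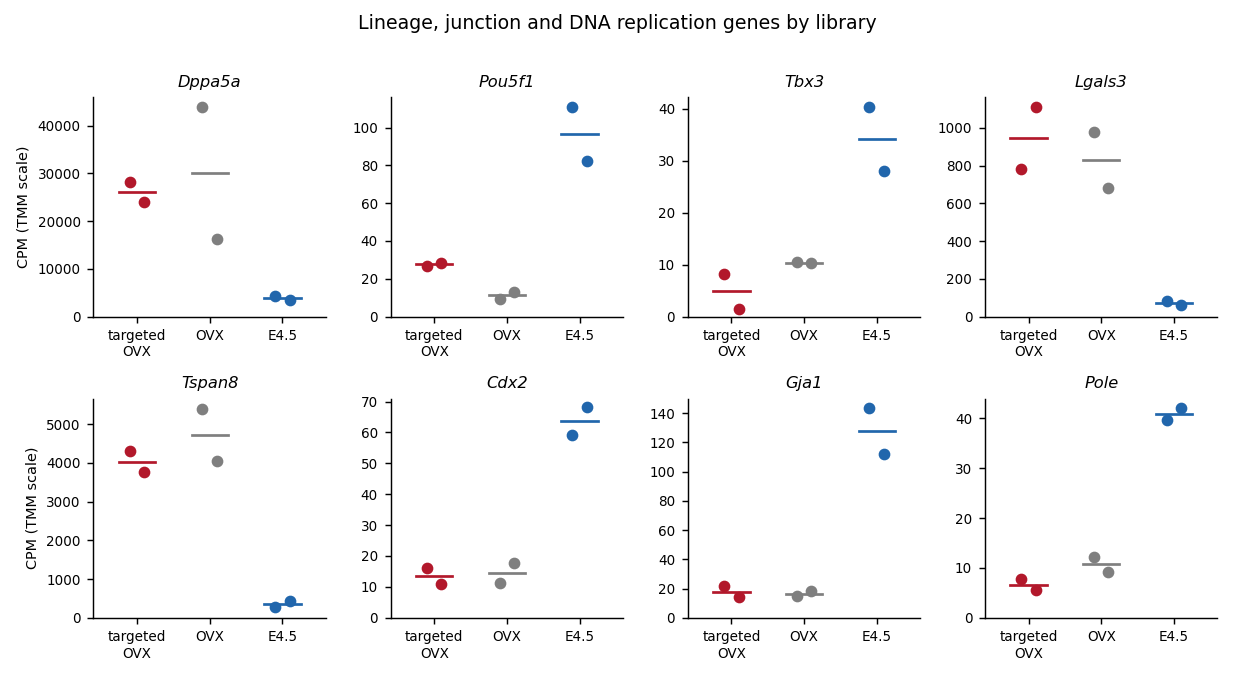
CPM (TMM scale, from 0) of 8 lineage, junction and replication genes in each library of targeted OVX, OVX and E4.5, with points for libraries and bars for the mean of 2. For Lgals3, Tspan8, Cdx2 and Gja1 the targeted OVX and OVX libraries sit together and apart from E4.5.

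Glutathione and redox genes were among the steepest differences. Of 33 genes 4 were higher (12.1%, against 1.68% of all genes) and 1 lower (3.03%, against 0.986%). Gsta1 had 497 and 1538 CPM in targeted OVX, against 2.72 and 10.55 CPM in E4.5, and Gsta2 37.0 and 108 CPM, against 2.15 and 1.06 CPM in E4.5. They encode alpha-class glutathione transferases and were 153-fold and 45.0-fold higher (7.26 ± 1.22 and 5.49 ± 0.71, adjusted p = 0.011 and 0.0045). Gsta1, Gsta2 and other alpha-class genes are similar in sequence, so the split of reads between them is uncertain. Gpx4, which clears lipid peroxides, had 1323 and 2138 CPM in targeted OVX, against 571 and 472 CPM in E4.5 (1.73 ± 0.33, adjusted p = 0.019). Gstm5, a mu-class transferase, was the fourth higher gene of 33, and Cat, catalase, the 1 lower gene, which lost its call without any 1 of the 4 libraries. The list had 4, 4, 2 and 4 higher calls without targeted OVX replicate 1, targeted OVX replicate 2, E4.5 replicate 1 and E4.5 replicate 2. OVX held 1703 and 790 CPM of Gsta1, overlapping targeted OVX.

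Metabolic lists held a few calls each. Of 26 glycolysis genes 3 were higher (11.5%, against 1.68% of all genes), Pfkp, Pgk1 and Ldhb. Pfkp, an isoform of the pathway's control enzyme phosphofructokinase, had 27.0 and 41.3 CPM in targeted OVX, against 7.002 and 4.98 CPM in E4.5 (2.51 ± 0.43, adjusted p = 0.012). Prps1, which makes the ribose phosphate for nucleotides, had 1186 and 967 CPM in targeted OVX, against 267 and 314 CPM in E4.5 (1.89 ± 0.30, adjusted p = 0.0091). It was the 1 call among 9 pentose phosphate genes (11.1%, against 1.68% of all genes higher). In fatty acid synthesis and storage the elongase Elovl1 was higher (2.97 ± 0.55, adjusted p = 0.016) and Elovl6 lower (−2.39 ± 0.57, adjusted p = 0.046). Odc1, the entry enzyme of polyamine synthesis, was lower, at 181 and 123 CPM in targeted OVX, against 447 and 411 CPM in E4.5 (−1.50 ± 0.34, adjusted p = 0.036). Oaz1, which encodes the antizyme that blocks it, was higher, at 396 and 426 CPM in targeted OVX, against 150 and 122 CPM in E4.5 (1.60 ± 0.32, adjusted p = 0.024). Bnip3, a mitophagy receptor, was higher (2.41 ± 0.39, adjusted p = 0.0097). It was the 1 call among 30 autophagy genes (3.33%, against 1.68% of all genes higher). That list did not hold Ulk1 and Atg13, which were called lower and are given above with the mTORC1 substrates. Without targeted OVX replicate 1, targeted OVX replicate 2, E4.5 replicate 1 and E4.5 replicate 2, the glycolysis list had 2, 0, 1 and 0 higher calls. The other genes of this paragraph lost their calls without at least 1 library.

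Among the genes named by size of change, with predicted gene models left out, was Scgb1a1, a secreted protein of airway and uterine epithelium. It had 19.6 and 16.2 CPM in targeted OVX and no count in E4.5, at least 429-fold higher against a floor of 3 counts per library (adjusted p = 0.023, 0.065 without E4.5 replicate 2). OVX held 0.9804 and 0.767 CPM of it, without passing (adjusted p = 0.33). Msx1, a homeobox gene of the uterine epithelium marker list, likewise had 12.7 and 16.2 CPM in targeted OVX and no count in E4.5, at least 347-fold (adjusted p = 0.045, lost without either E4.5 library). The summed uterine epithelium markers were 170 and 257 CPM of library totals in targeted OVX, against 230 and 226 CPM in E4.5. Of 16 genes 9 and 11 were at 0 in targeted OVX, and 11 and 10 in E4.5. Wfdc2 alone held 154 and 240 CPM of the sum in targeted OVX, and 215 and 203 CPM in E4.5. The sum therefore says little of the other markers. The neutrophil gene S100a8 was called at 14.0 and 15.2 CPM in targeted OVX, against 0.159 and 0.0580 CPM in E4.5 (7.03 ± 1.48, adjusted p = 0.028, lost without either E4.5 library). Whether material from the uterus had a part in these 3 genes was not tested.

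The other large higher calls were Ctsll3, Tmem54, Xaf1, Snap91, Slc40a1, Wls, Ftl2-ps, Lrrc47, Ctsc, Slc39a2 and Bex4, at 22.7-fold to 1349-fold. Tmem54 had 28.9 and 35.9 CPM in targeted OVX, against 0 and 0.130 CPM in E4.5. Xaf1, an interferon-inducible antagonist of XIAP, had 40.97 and 27.8 CPM in targeted OVX, against 0.252 and 0.101 CPM in E4.5 (7.58 ± 0.98, adjusted p = 0.0045). It was the 1 call among 22 interferon response genes (4.55%, against 1.68% of all genes higher). Slc40a1, the iron exporter ferroportin, had 7.23 and 50.6 CPM in targeted OVX, against 0.0531 and 0.898 CPM in E4.5 (adjusted p = 0.022, 0.053 without targeted OVX replicate 2). Slc39a2, a zinc importer, had 186 and 260 CPM in targeted OVX, against 2.98 and 16.4 CPM in E4.5 (4.52 ± 0.71, adjusted p = 0.0091). Ctsll3, a cathepsin-like protease gene, had 15.9 and 899 CPM in targeted OVX, against 0 and 0.681 CPM in E4.5, so its size rests on replicate 2. Tmem54, Xaf1, Ctsll3, Ctsc, Slc39a2 and Bex4 kept their calls without each of the 4 libraries. Snap91, Slc40a1, Wls, Lrrc47 and Ftl2-ps each lost theirs without at least 1, with an adjusted p of up to 0.13.

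By the same rule, the largest lower calls were led by Llgl1, a regulator of epithelial polarity, at 1.88 and 0.536 CPM in targeted OVX, against 16.8 and 17.0 CPM in E4.5 (−3.81 ± 0.73, adjusted p = 0.02). Sf3a2, a splicing factor subunit, had 2.23 and 0.507 CPM in targeted OVX, against 18.2 and 18.2 CPM in E4.5 (−3.73 ± 0.79, adjusted p = 0.03). Both lost their calls without targeted OVX replicate 2 and without E4.5 replicate 2, and Sf3a2 also without E4.5 replicate 1. Rn7s1 and Rn7s2, near-identical copies of the signal recognition particle RNA whose reads cannot be told apart, were 13.1-fold and 12.3-fold lower. Rn7s1 had 31.7 and 80.4 CPM in targeted OVX, against 720 and 744 CPM in E4.5 (−3.71 ± 0.66, adjusted p = 0.014), and kept its call without each library. Glg1, a Golgi glycoprotein, had 5.63 and 4.26 CPM in targeted OVX, against 59.0 and 54.7 CPM in E4.5 (−3.52 ± 0.57, adjusted p = 0.0091). Aldh1l1, which oxidises formyltetrahydrofolate, had 4.01 and 2.14 CPM in targeted OVX, against 36.7 and 23.8 CPM in E4.5 (−3.30 ± 0.45, adjusted p = 0.0057). Glg1 and Aldh1l1 also kept their calls without each library. Slc37a2, Mettl27, Pgap2, Btbd2, Irf2bp1, Aldh6a1 and Pdxk completed the list, at 8.46-fold to 12.1-fold lower, and each lost its call without at least 1 of the 4 libraries.

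Where targeted OVX differed from OVX, it lay nearer to E4.5 for some genes and farther for others. Gchfr encodes the feedback regulator that inhibits GTP cyclohydrolase, the entry enzyme of tetrahydrobiopterin synthesis (ENSMUSG00000046814, chromosome 2, 119167773 to 119172390). It had 38.5 and 49.7 CPM in targeted OVX and 642 and 396 CPM in OVX, against 3.75 and 5.36 CPM in E4.5. Targeted OVX was thus between the other groups, 9.69-fold above E4.5 (3.28 ± 0.38, adjusted p = 0.0027) and below OVX (−3.56 ± 0.38, adjusted p = 0.01). Gchfr kept both calls without each library of the groups compared. Emp2, an epithelial membrane protein, had 48.7 and 45.7 CPM in targeted OVX and 283 and 527 CPM in OVX, against 140 and 172 CPM in E4.5. It was below OVX (−3.10 ± 0.35, adjusted p = 0.01) and also below E4.5 (−1.72 ± 0.33, adjusted p = 0.021), the last call being lost without any 1 of the 4 libraries. Crym, a thyroid hormone-binding protein, had 0.913 and 1.13 CPM in targeted OVX and 35.3 and 211 CPM in OVX, against 6.31 and 4.38 CPM in E4.5. It was below OVX (−6.91 ± 0.86, adjusted p = 0.019) and did not pass against E4.5 (−2.39 ± 0.71, adjusted p = 0.096). Eif4ebp1, described above, was farther from E4.5 in targeted OVX than in OVX. Of the 8 genes called against OVX, 7 were also called against E4.5, and all 8 kept their calls without OVX replicate 1 (adjusted p between 0.00017 and 0.03). The count of 8 was 179 without targeted OVX replicate 1, 22 without targeted OVX replicate 2, 116 without OVX replicate 1, 103 without OVX replicate 2, 885 with DESeq2 and 0 with only the groups compared, where 1272 genes had an unadjusted p under 0.05.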

How the data were processed

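Per the labels' protocols, RNA of blastocysts was made into full-length cDNA with a kit for ultra-low input (SMART-Seq v4), which does not count molecules singly and does not mark strand, so overlapping genes cannot be told apart. The deposited table holds whole-number estimated counts made by the authors for 31528 genes on GRCm38, and FPKM computed by the authors. Per the submitters' processing notes, cutadapt 1.9, HISAT2 2.0.4 and StringTie 1.3.4d were used. Which tool counted is not given in the sources used here. Low counts, those above 0 and up to 100, were multiples of 4 in 27.2% to 34.6% of cases by library, so dividing all counts by 4 was one alternative.

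Genes were kept with filterByExpr, scaled by TMM (factors 0.671 to 1.414) and tested with edgeR 4.0.16 quasi-likelihood tests in 1 fit of 13 libraries with a mean per group (7 residual degrees of freedom, common biological coefficient of variation 0.896), since a pair of groups alone leaves 2. Adjusted p-values are Benjamini-Hochberg over all tested genes. Each SE is the fold change divided by the square root of its F. CPM of marker sums are on library totals. Genes at 0 counts were set to a floor of 3 counts per library for fold bounds. Of 1355 genes in 56 lists 1314 were tested. The members and lists were chosen with earlier results of these data known. Named genes were the targets, up to 15 per direction by size (at least 16 CPM, no overlap, no predicted symbol), up to 4 called per list, up to 6 per direction against OVX and any member of GATOR1, TSC and mTOR complexes. Asns, Trib3, Atf4, Cdkn1a, Nanog, Sox2, Gata6, Mlycd, Cryl1, Malat1 and Glipr1 were chosen after their values were seen. Alternatives used DESeq2 1.42.0 and limma 3.58.1 on log2 of FPKM plus 1. The test was checked on simulated data. Figures used Python 3.11.15 and matplotlib 3.10.9 with R 4.3.3. Replicates differed by more than sampling noise (chi-square per degree of freedom 254 in targeted OVX, 755 in OVX and 186 in E4.5). Some single items are not reported here.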

Additional observations from a re-analysis of the deposited data

Results flagged for a closer look

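For 8 genes the difference from E4.5 was not the same in targeted OVX and OVX, by the edgeR test between these 2 groups, which share E4.5 as the reference. Eif4ebp1 was higher in targeted OVX (log2 difference 2.48, adjusted p = 0.042). Lower in targeted OVX were Emp2 (−3.10, adjusted p = 0.01), Gchfr (−3.56, adjusted p = 0.01), Crym (−6.91, adjusted p = 0.019) and Mettl27 (−4.18, adjusted p = 0.029). Others had no count in either targeted OVX library. Mlycd, malonyl-CoA decarboxylase, had 6.50 and 5.73 CPM in OVX and 3.64 and 4.11 CPM in E4.5, so that targeted OVX was at least 76.1-fold lower than OVX (adjusted p = 0.026). Cryl1, lambda-crystallin, had 1.47 and 7.22 CPM in OVX and 4.54 and 2.93 CPM in E4.5, at least 54.1-fold (adjusted p = 0.026). Emp2, Gchfr and Crym lost their calls in none of the alternatives apart from the fit of only the groups compared, where the adjusted p of all 8 was 0.59.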

How the results depend on the processing

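Against E4.5 the count of 581 called genes was 2567 with DESeq2, 2204 with limma on FPKM, 1638 with no filter on low counts, 1039 at a mean CPM of at least 5, 1141 with a length offset and 0 in a fit of only the groups compared, and 82 to 791 with 1 library left out. Against OVX the count of 8 was 885, 26, 636, 10, 10 and 0 under the same settings, and 22 to 179 with 1 library left out. The cause was not tested, apart from the fewer samples of the smaller fits. Dividing counts by 4 gave 780 and 6 calls. A replicate block gave 380 and 4 calls: same-numbered libraries did not deviate together (correlation 0.05 against E4.5 and −0.03 against OVX over genes), so the numbers are taken only as names. The share of calls that were higher was 63.0%, against 14.1% with library totals, 14.3% on FPKM and 84.1% with the length offset. The naming rules selected 119 called genes, of which not all are described above and which do not include Asns, Cat, Malat1 and Glipr1. None of the 119 changed sign under any alternative run. Their calls were lost for 38 with library totals, 27 on FPKM, 30 with the block, 21 with the length offset and all 119 in the fit of only the groups compared, and for 34 without targeted OVX replicate 1, 71 without targeted OVX replicate 2, 74 without E4.5 replicate 1 and 94 without E4.5 replicate 2, with 19 kept without each of the 4. Signs turned for Nprl2 (0.49) with library totals (−0.24), on FPKM (−0.26) and with 1 library left out (−0.13 to 0.91), and for Tsc1 (−0.00) with median-of-ratios scaling (0.026), DESeq2 (0.026), the replicate block (0.091), the length offset (0.45) and 1 library left out (−0.35 to 0.44). They also turned with the length offset for Mtor (0.17) and Rptor (0.40), and with 1 library left out (−0.91 to 0.046 for Mtor and −0.22 to 0.046 for Rptor). With 2 libraries a group, changes of less than several fold are poorly resolved.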

Other observations

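Apart from the lists, Glipr1, a secreted CAP-family protein, had the smallest adjusted p among genes with an official symbol, at 344 and 281 CPM in targeted OVX, against 16.5 and 17.9 CPM in E4.5 (4.18 ± 0.35 SE, edgeR adjusted p = 0.00031). OVX held 399 and 639 CPM. Malat1, a nuclear noncoding RNA, had 26016 and 27195 CPM in targeted OVX, against 1736 and 2853 CPM in E4.5 (3.54 ± 0.70, adjusted p = 0.023), and took 7.23% and 2.63% of counts in OVX. Hsp90ab1, a cytosolic chaperone, was the 1 call among 22 heat shock genes (4.55%, against 0.986% of all genes lower). It had 1103 and 777 CPM in targeted OVX, against 2888 and 2751 CPM in E4.5 (−1.58 ± 0.34, adjusted p = 0.03). Tet2, which oxidises methylcytosine, was the 1 call among 12 DNA methylation genes (8.33%, against 0.986% of all genes lower). It had 20.2 and 13.5 CPM in targeted OVX, against 66.6 and 86.7 CPM in E4.5 (−2.18 ± 0.38, adjusted p = 0.012). Dusp4, a phosphatase that ERK signalling induces and that acts on ERK, had 2.11 and 3.81 CPM in targeted OVX, against 22.0 and 22.7 CPM in E4.5 (−2.92 ± 0.58, adjusted p = 0.023). Dusp4 lost its call without any 1 of the 4 libraries, Hsp90ab1 without targeted OVX replicate 2 or either E4.5 library, and Tet2 without targeted OVX replicate 2 or E4.5 replicate 2.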
